A study of Mus musculus with 6 samples.

Results

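The 36 genes described here encode the machinery that sets active chromatin and DNA methylation. They comprise trithorax-group histone methyltransferases and their partners, the H3K27 demethylases, subunits of the SWI/SNF remodelling complexes, DNA methyltransferases, TET dioxygenases and class I histone deacetylases. They were taken by gene symbol from the 24453 rows of 6 count files, and a symbol was found for all 36. The libraries are bulk RNA sequencing of sorted back skin cells of mice at postnatal day 0, with 3 libraries under the label control and 3 under the label Ring1a/b 2KO. The 2KO genotype is Ring1a-/- Ring1b-/-, the loss of both RING1 proteins, which are the catalytic subunits of Polycomb repressive complex 1 (PRC1). The strain, the Cre driver, the alleles carried by the control mice, and whether the libraries of a group come from separate animals are not stated in the labels, so p-values measure only the spread between these libraries. The sample labels name hair follicle cells, while the attached protocol describes a gate for interfollicular epidermis (EpCAM, Sca1 and high α6-integrin).

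Trithorax and SWI/SNF proteins are the classical counterparts of Polycomb. COMPASS complexes place methyl groups on lysine 4 of histone H3 at promoters and enhancers, KDM6A and KDM6B remove the H3K27 methylation that Polycomb repressive complex 2 places, and SWI/SNF complexes move nucleosomes with energy from ATP. DNA methylation is a separate repressive mark: DNMT3A and DNMT3B place it, DNMT1 copies it to the new strand after DNA replication, and TET proteins start its removal by oxidation. In epidermis, DNMT1 is known to maintain the progenitor state.

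Libraries held 24.8 to 30.8 M counts (M, mega). Values are in CPM (counts per megacount, scaled by TMM), the test is edgeR's quasi-likelihood test, and adjusted p-values are over all 14972 genes tested. Neither gene named in the knockout set control apart from 2KO. Ring1 was at 19.5, 22.4 and 3.37 CPM under the control label (replicates 1 to 3) and at 1.84, 7.34 and 14.1 CPM under the 2KO label. Rnf2, which encodes RING1B, was at 67.7, 79.5 and 47.1 against 75.3, 66.4 and 89.2 CPM. Control replicate 3 and 2KO replicate 3 go against their labels for Ring1, and a gene-wide count is no check of a deletion where what remains of the gene is transcribed. Directions below are therefore between labels. Xist was at 4555 to 5361 CPM in control replicate 3 and 2KO replicates 1 and 2 and at 2.48 to 10.4 CPM in the other 3 libraries, where the Y-linked Ddx3y was at 113 to 126 CPM. Ring1 divided the libraries in the same way, at 14.1 to 22.4 CPM where Xist was low and 1.84 to 7.34 CPM where it was high. The reason was not tested. Of the sort's genes, Epcam was at 165 to 358 CPM and Itga6, which encodes α6-integrin, at 683 to 1087 CPM. Ly6a, which encodes Sca1, was at 1.92 to 7.28 CPM. Of these and the keratin genes Krt14 and Krt5, 5 in all, 0 passed the test and 0 lay below 0 (51.4% of all genes tested did). Summed markers of other cells were at most 26.7 CPM for immune cells, 14.7 for endothelium, 59.5 for melanocytes, 50.8 for Merkel cells and 2.71 for skeletal muscle, and the Langerhans cell gene Cd207 was at 0 in all libraries. Summed dermal fibroblast markers were at 1389 to 1605 CPM in control and 1359 to 1690 CPM in 2KO, and 4 of 13 tested rose (Col6a1, Col6a2, Pdgfra and Thy1), while 4 of the 13 lay below 0. Among the latter, Postn did not overlap in the other direction (log2 fold change -0.74, edgeR adjusted p = 0.0598). Of 5 Merkel cell markers tested 1 rose (Krt18) and 3 lay below 0, of which Krt20 did not overlap (-2.56, adjusted p = 0.119). Of all genes tested 6.61% rose. The part of cell makeup in the results below was not tested.

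Of the 36 genes, 1 passed the threshold of an adjusted p under 0.05: Dnmt1 was lower under the 2KO label. None was higher, also with DESeq2 and with limma-voom, and none was higher at an unadjusted edgeR p under 0.05. The share called among the 36 was 2.78%, where it was 9.02% of all genes tested (6.61% higher and 2.42% lower). All 36 passed the filter on low counts, and the lowest count of any of them in any library was 130. The 95% interval of the fold change lay inside 2-fold in either direction for 34 of the 36, the exceptions being Dnmt1 and Dnmt3b, and inside 1.5-fold for 13. On counts simulated for 14680 genes of this comparison the test found 12% of 2-fold and 85% of 4-fold changes, each planted in 100 genes. These genes were drawn at random from those above a low floor of mean CPM. The rates were not worked out for the 36 themselves, whose SE had a median of 0.19. In the data 1351 genes were called, more than were changed in the simulation. The adjusted threshold is stricter where fewer genes change, so the simulated rates may understate those of the data. A gene short of the threshold is not shown to be equal in both groups, since its interval allows a range of fold changes. The median log2 fold change was -0.10 for the 36 and -0.02 for all genes tested, and 24 of the 36 lay below 0 (66.7%, against 51.4% of all genes tested).

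**Figure D1:**
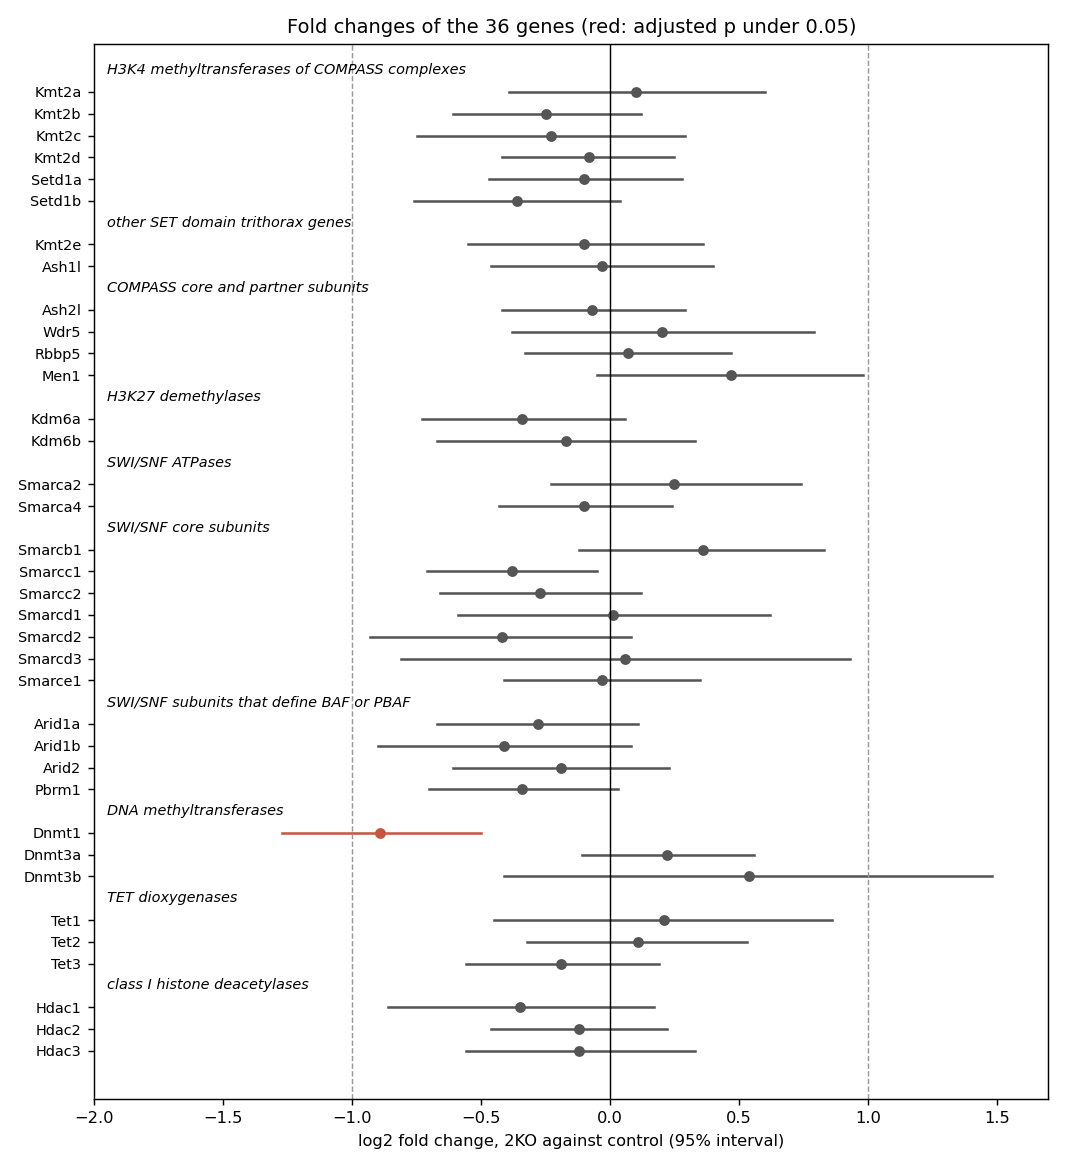
Log2 fold change of 2KO against control for each of the 36 genes (points) with its 95% interval (bars), grouped by role; dashed lines mark 2-fold. Dnmt1 at -0.89 is the gene past the threshold, and 34 intervals lie between the dashed lines.

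Dnmt1, the maintenance DNA methyltransferase (chromosome 9, 20907209 to 20959888, minus strand, GRCm38), was at 374, 294 and 297 CPM under the control label and 195, 170 and 157 CPM under the 2KO label. Every 2KO library was below every control library. The level fell to 0.541 of control (95% interval 0.414 to 0.707, log2 fold change -0.89, SE 0.17, edgeR adjusted p = 0.0122). The level was 334 against 157 CPM in the libraries with little Xist (2 control, 1 2KO). It was 297 against 183 CPM in those with much (1 control, 2 2KO). As the groups did not overlap, any split of the libraries shows a fall, so this split adds no support. The call was lost without 2KO replicate 2 (adjusted p = 0.0502, log2 fold change -0.86) and when replicate 3 was dropped from both groups (0.113, -0.87). In bulk libraries fewer cells that express a gene and less RNA per cell cannot be told apart.

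Uhrf1, whose protein recruits DNMT1 to newly replicated DNA, was at 121, 84.3 and 102 CPM under the control label and 56.5, 54.8 and 32.4 CPM under the 2KO label (chromosome 17, 56303321 to 56323486, plus strand). The groups did not overlap, and Uhrf1 fell by 1.10 on the log2 scale (SE 0.25, edgeR adjusted p = 0.0254). The fall was 0.94, 1.10, 1.20 and 0.86 on that scale without control replicates 1 or 3 or 2KO replicates 2 or 3, each of which ended the call (adjusted p = 0.088, 0.0724, 0.0538 and 0.0568), and 0.88 when replicate 3 was dropped from both groups (0.144) and 1.08 when replicate 1 was (0.0664).

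Genes of DNA replication were lower in the same libraries. Of 25 genes of S phase (helicase subunits, polymerases, nucleotide synthesis and chromatin assembly), 18 fell (72.0%, against 2.42% of all genes tested). None rose, 0 were higher at an unadjusted p under 0.05, and DESeq2 and limma-voom gave 0 higher and 22 and 18 lower. Mcm6, a subunit of the replicative helicase, went from 172, 96.7 and 138 CPM under the control label to 34.8, 41.5 and 46.7 CPM under the 2KO label (log2 fold change -1.73, SE 0.24, edgeR adjusted p = 0.0027). The median log2 fold change of the 25 genes was -1.25. Their summed level was 1820, 1289 and 1500 CPM under the control label and 761, 712 and 507 CPM under the 2KO label, and the groups did not overlap. The number that fell was 6, 13 and 9 on leaving out control replicates 1, 2 and 3 in turn, 16, 9 and 8 on leaving out 2KO replicates 1, 2 and 3, and 11 and 3 on dropping replicate 1 or replicate 3 from both groups. As a share of the S phase sum Dnmt1 was 20.5%, 22.8% and 19.8% under the control label and 25.7%, 23.9% and 30.9% under the 2KO label. This ratio, chosen after the values were seen, was higher in each library labelled 2KO than in any control library. The same share for Uhrf1 overlapped, at 6.54% to 6.82% and 6.40% to 7.71%. The part of cell cycling in the fall of Dnmt1 was not tested.

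**Figure D2:**
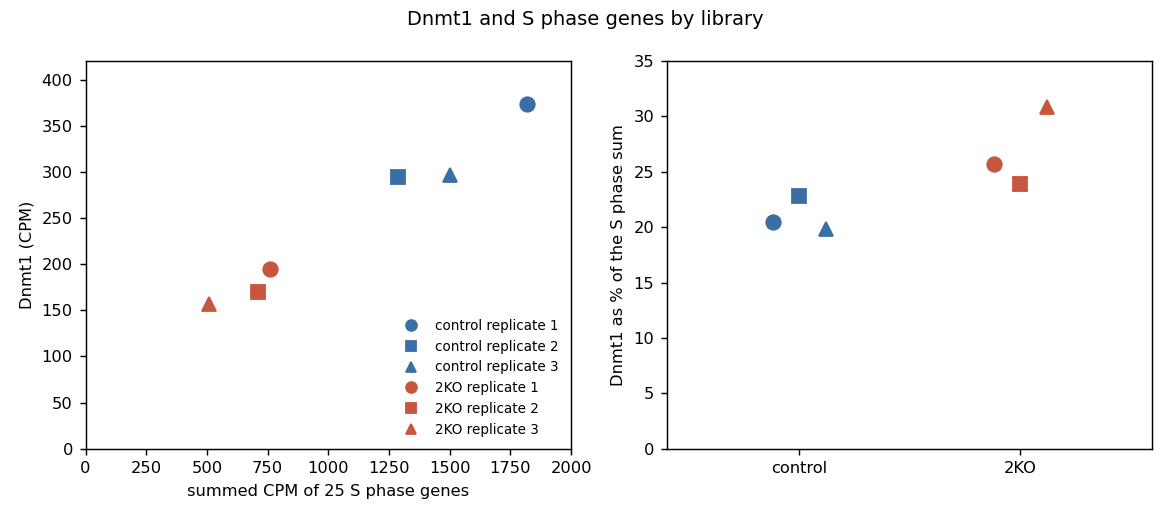
Left, Dnmt1 (CPM) against the summed CPM of 25 S phase genes, 1 point per library. Right, Dnmt1 as a percentage of that sum: values run from 19.8% to 22.8% under the control label and from 23.9% to 30.9% under the 2KO label.

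Many S phase promoters carry a binding motif of E2F factors, the transcription factors released at the entry into S phase. The motif was searched as TTTCCCGC, TTTCGCGC, TTTGCCGC or TTTGGCGC on both strands, overlaps included, in the 250 bases before each RefSeq transcription start (GRCm38.p6). Of the 36 genes, 26 had a promoter in that table, and the motif was in 3 of the 26 (11.5%): Dnmt1, Arid1a and Smarcd1. It was in 2.16% of all genes in the table, in 3.68% of the tested genes with a promoter there, and in 5 of the 19 S phase genes with one (26.3%). The stretches that hold it are shown to compare Dnmt1 with Uhrf1, the 5 S phase genes and the other members. Dnmt1, Uhrf1, Mcm5 and Mcm6 hold TTTCGCGC, Pola1 holds TTTGGCGC, and Cdc6, Mcm7, Arid1a and Smarcd1 hold TTTCCCGC, read on either strand. Of the 5 S phase genes Mcm5, Mcm6 and Pola1 fell, while Cdc6 (edgeR adjusted p = 0.11) and Mcm7 (adjusted p = 0.082) did not pass the test, nor did Arid1a and Smarcd1. Mcm5 and Mcm6 also hold TTTGGCGC, as Pola1 does. In both stretches such a match overlaps the match in capitals and is not itself marked, and Mcm6 holds a further TTTGGCGC outside its stretch. Each stretch is 30 bases, 5′ to 3′ on the gene's strand, with 1 match in capitals.
Dnmt1 (chr9:20952824-20952853, minus strand): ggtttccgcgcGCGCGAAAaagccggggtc
Uhrf1 (chr17:56304117-56304146, plus strand): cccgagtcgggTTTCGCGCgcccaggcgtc
Mcm5 (chr8:75109345-75109374, plus strand): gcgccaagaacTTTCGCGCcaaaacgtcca
Mcm6 (chr1:128359793-128359822, minus strand): gtatgcttttgGCGCGAAAagtgcgtgcgg
Pola1 (chrX:93632275-93632304, minus strand): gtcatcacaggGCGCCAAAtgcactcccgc
Cdc6 (chr11:98908002-98908031, plus strand): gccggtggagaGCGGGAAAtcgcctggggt
Mcm7 (chr5:138172030-138172059, minus strand): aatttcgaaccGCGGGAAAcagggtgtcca
Arid1a (chr4:133754022-133754051, minus strand): tccctccctccTTTCCCGCcccctccccct
Smarcd1 (chr15:99702145-99702174, plus strand): gtcagcacgccTTTCCCGCtagtcgccccc
A gene was counted as holding the motif if any of its starts had it, and Uhrf1, Mcm7 and Arid1a also have a start without it. Dnmt1 has 3 starts in the table, and the motif lies before 1 of them. In GENCODE vM21 that motif falls inside an exon, within 10 bases after the start of a Dnmt1 transcript, and those of Smarcd1 and Mcm7 also lie in an exon. A match is a description of these letters and not a binding site. Most of the 26 genes had a promoter rich in CpG, the dinucleotide that DNMT1 methylates. In 23 of 26 the observed to expected CpG ratio was over 0.6 at 1 start or more (88.5%). This held for 67.7% of the tested genes with a promoter in the table. For Dnmt1 the ratio was 0.89 before the start with the motif and 0.38 and 0.126 before the others.

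Neither de novo methyltransferase passed the test. Dnmt3a was at 279, 291 and 258 CPM under the control label and 343, 315 and 309 CPM under the 2KO label. All 3 values in 2KO were above those in control, but the difference missed the threshold (log2 fold change 0.22, SE 0.15, edgeR adjusted p = 0.441, 95% interval -0.11 to 0.56). Dnmt3b was low and uneven, at 16.0, 12.2 and 16.5 CPM against 36.3, 18.9 and 9.81 CPM. Its groups overlapped, and its interval was the widest of the 36 (log2 fold change 0.54, SE 0.42, -0.41 to 1.48, edgeR adjusted p = 0.532). Without 2KO replicate 1 its log2 fold change was -0.04.

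The TET genes, whose proteins oxidise 5-methylcytosine, did not pass the test (edgeR adjusted p = 0.593 to 0.815). Tet3 had the highest level of the 3 per length (55.8 CPM per kb of merged exons over the 6 libraries), at 878, 1072 and 1028 CPM under the control label and 787, 954 and 871 CPM under the 2KO label (log2 fold change -0.19, SE 0.17, adjusted p = 0.593). Tet1 had the lowest (3.38 CPM per kb), at 54.0, 53.1 and 38.5 against 40.2, 45.9 and 81.9 CPM. Tet1 was highest in 2KO replicate 3, and its log2 fold change of 0.21 (SE 0.29, adjusted p = 0.762) was -0.15 without that library.

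**Figure D3:**
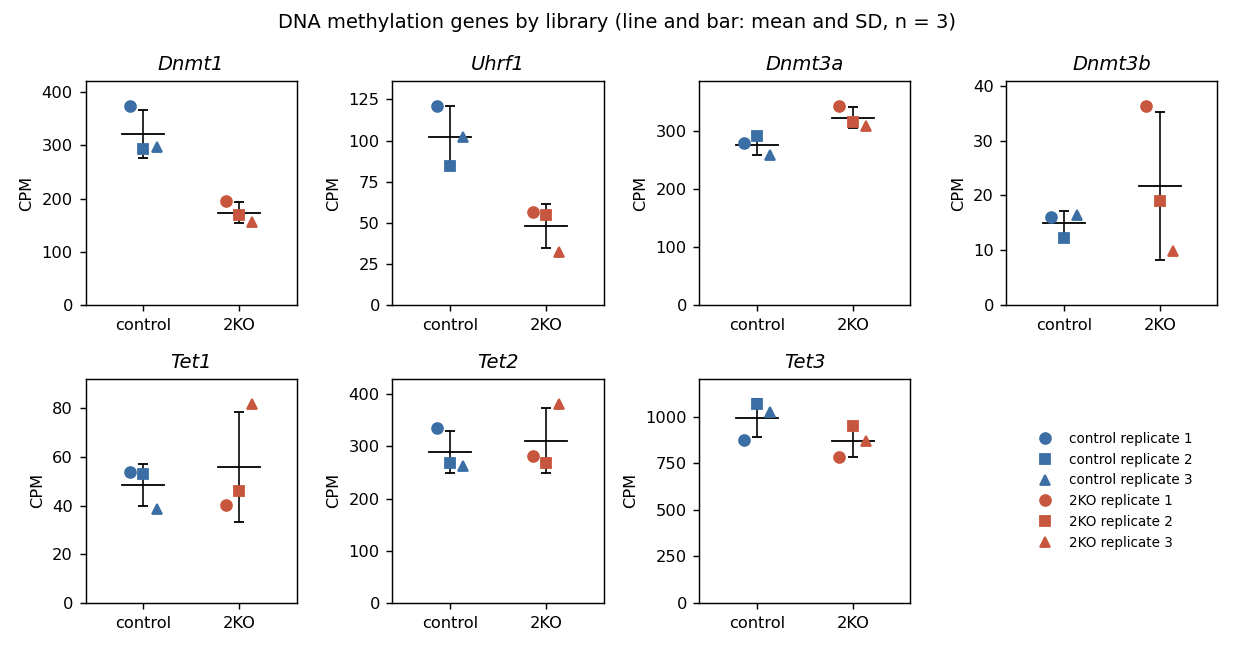
Level in CPM of 7 DNA methylation genes in each library, with the mean (line) and SD (bar) of 3 libraries per group. The groups are apart for Dnmt1 and Uhrf1, lower in 2KO, and for Dnmt3a, higher in 2KO but short of the threshold, and overlap for Dnmt3b, Tet1, Tet2 and Tet3.

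No H3K4 methyltransferase of the COMPASS complexes passed the test. Of the 6, Kmt2a lay above 0 and the other 5 below (log2 fold change -0.36 to 0.10). Kmt2d, an enhancer methyltransferase and the highest of them per length, was at 776, 727 and 758 CPM under the control label and 722, 732 and 681 CPM under the 2KO label. Its 95% interval for the fold was 0.749 to 1.19 (log2 fold change -0.08, SE 0.15, edgeR adjusted p = 0.818). Setd1b, a promoter methyltransferase and the lowest per length, was at 108, 114 and 114 against 72.2, 101 and 88.2 CPM. The groups did not overlap for Setd1b, yet its difference missed the threshold (log2 fold change -0.36, SE 0.18, adjusted p = 0.288). Groups without overlap made up 28.4% of all genes tested (15.2% higher and 13.1% lower) and 8 of the 36 (22.2%), 2 higher and 6 lower. Kmt2a, Kmt2b, Kmt2c and Setd1a had adjusted p-values of 0.450 to 0.851.

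Kmt2e and Ash1l encode SET domain proteins of the trithorax group, and neither passed the test. Kmt2e was at 706, 687 and 614 CPM under the control label and 517, 548 and 810 CPM under the 2KO label. Ash1l, a methyltransferase for H3K36, was at 523, 468 and 457 against 437, 387 and 596 CPM. In both genes 2KO replicate 3 was the highest of all 6 libraries and the other 2KO libraries the lowest, and their log2 fold changes were -0.10 (SE 0.20, edgeR adjusted p = 0.846) and -0.03 (SE 0.19, adjusted p = 0.964). Of the exon length of Kmt2e, 9.3% overlaps Srpk2 on the other strand, and strand use in counting is not stated. Srpk2 had a mean of 110 CPM in control and 162 CPM in 2KO.

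Of the shared COMPASS subunits and menin, 3 lay above 0 and 1 below, and none passed. Men1 encodes menin, a partner of KMT2A and KMT2B. It was at 25.5, 38.3 and 36.5 CPM under the control label and 40.8, 52.7 and 45.0 CPM under the 2KO label, without overlap (log2 fold change 0.47, SE 0.23, edgeR adjusted p = 0.281). The scaffold subunits Ash2l (88.3, 86.7 and 92.9 against 87.0, 87.9 and 81.0 CPM) and Rbbp5 (68.6, 92.5 and 84.1 against 86.1, 81.3 and 90.2 CPM) overlapped between the groups. Their fold intervals were 0.745 to 1.23 for Ash2l (log2 fold change -0.07, SE 0.16, adjusted p = 0.872) and 0.794 to 1.39 for Rbbp5 (0.07, SE 0.18, adjusted p = 0.879). Wdr5, the subunit that holds the core together, had an adjusted p of 0.737.

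The H3K27 demethylases, which act against PRC2, were both below 0 and short of the threshold. Kdm6a, an X-linked gene known to escape X inactivation, was at 252, 202 and 276 CPM under the control label and 187, 215 and 174 CPM under the 2KO label (log2 fold change -0.34, SE 0.18, edgeR adjusted p = 0.313). The groups overlapped through replicate 2 of each. Within the libraries with little Xist the means were 227 and 174 CPM, and within those with much Xist 276 and 201 CPM, and with Xist as a covariate the log2 fold change was -0.42 (adjusted p = 0.221). Kdm6b was at 360, 265 and 268 against 342, 252 and 202 CPM (log2 fold change -0.17, SE 0.22, adjusted p = 0.748).

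No subunit of SWI/SNF passed the test among 13, of which 9 lay below 0 and 4 above (log2 fold change -0.42 to 0.36). The ATPase Smarca4, which encodes BRG1, had the highest level per length of all 36 genes (65.9 CPM per kb), at 411, 454 and 458 CPM in control and 388, 437 and 412 CPM in 2KO. Its fold interval was 0.741 to 1.18 (log2 fold change -0.10, SE 0.15, edgeR adjusted p = 0.786). The alternative ATPase Smarca2, which encodes BRM, was at 187, 184 and 202 against 156, 249 and 278 CPM (log2 fold change 0.25, SE 0.22, adjusted p = 0.577). In 2KO, replicate 1 was below and replicates 2 and 3 above all control libraries.

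Smarcc1, which encodes the scaffold subunit BAF155, came closest to the threshold after Dnmt1. It was at 459, 485 and 497 CPM under the control label and 360, 360 and 388 CPM under the 2KO label. The groups did not overlap and spread little (SD 19.5 and 16.5 CPM, n = 3), with a log2 fold change of -0.38 (SE 0.15, unadjusted p = 0.0281, edgeR adjusted p = 0.164). At an unadjusted p under 0.05 it and Dnmt1 made up 5.56% of the 36, against 21.6% of all genes tested (12.7% higher and 8.9% lower). Over 18 alternative analyses (other scalings, filters, tools and covariates, and libraries left out) the log2 fold change of Smarcc1 ranged from -0.39 to -0.35 and its adjusted p from 0.124 to 0.380. Its paralogue Smarcc2, which encodes BAF170, was at 301, 333 and 390 against 245, 321 and 280 CPM (log2 fold change -0.27, SE 0.17, adjusted p = 0.422).

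The other core subunits gave mixed values. Smarcd2 was at 115, 114 and 155 CPM in control and at 69.1, 108 and 109 CPM in 2KO, without overlap (log2 fold change -0.42, SE 0.23, edgeR adjusted p = 0.325). Smarcb1, the subunit lost in rhabdoid tumours, was at 38.3, 40.2 and 48.2 against 49.4, 65.7 and 47.4 CPM (0.36, SE 0.21, adjusted p = 0.384). Smarcd3 had the lowest level of the 36 (1.28 CPM per kb), at 6.17, 5.39 and 7.72 against 5.22, 9.75 and 5.10 CPM (0.06, SE 0.39, adjusted p = 0.962). Of its exon length, 48.2% overlaps Chpf2 on the other strand, so its reads are uncertain because strand use in counting is not stated. Smarcd1 and Smarce1 had adjusted p-values of 0.987 and 0.951.

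The 4 subunits listed here as distinguishing the BAF and PBAF forms of the complex were Arid1a, Arid1b, Arid2 and Pbrm1. All 4 were below 0 and short of the threshold (log2 fold change -0.41 to -0.19, edgeR adjusted p = 0.269 to 0.647). Further SWI/SNF subunits outside this list went both ways. For example, Phf10 (log2 fold change 0.34, edgeR adjusted p = 0.354) and Ss18 (0.31, adjusted p = 0.303) were higher without overlap. Dpf2 (-0.30, adjusted p = 0.358) was lower without overlap, and Brd7 (-0.07, adjusted p = 0.864) overlapped. Arid1a, a subunit of BAF, was at 925, 698 and 689 CPM under the control label and 640, 645 and 619 CPM under the 2KO label, without overlap (log2 fold change -0.28, SE 0.17, adjusted p = 0.404). Its paralogue Arid1b was at 192, 187 and 178 against 107, 123 and 188 CPM, and 2KO replicate 3 alone lay within the control range. Without that library the log2 fold change of Arid1b went from -0.41 (SE 0.22, adjusted p = 0.322) to -0.66 (adjusted p = 0.0671). Pbrm1, the bromodomain subunit of PBAF, was at 440, 392 and 409 against 376, 293 and 313 CPM, without overlap (log2 fold change -0.34, SE 0.16, adjusted p = 0.269).

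All 3 class I histone deacetylases, the catalytic subunits of NuRD, SIN3, CoREST and NCoR complexes, lay below 0 and did not pass (edgeR adjusted p = 0.445 to 0.807). Hdac2 had the highest level per length (38.5 CPM per kb), at 181, 188 and 169 CPM in control and 177, 154 and 163 CPM in 2KO (log2 fold change -0.12, SE 0.15, adjusted p = 0.725). Hdac1 was at 71.8, 60.9 and 84.6 against 66.5, 62.4 and 42.0 CPM (-0.35, SE 0.23, adjusted p = 0.445), its lowest value being that of 2KO replicate 3. Hdac3 was at 35.2, 41.0 and 44.7 against 38.2, 38.9 and 34.3 CPM (-0.12, SE 0.20, adjusted p = 0.807). The fold interval was 0.726 to 1.16 for Hdac2, 0.550 to 1.12 for Hdac1 and 0.676 to 1.25 for Hdac3.

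**Figure D4:**
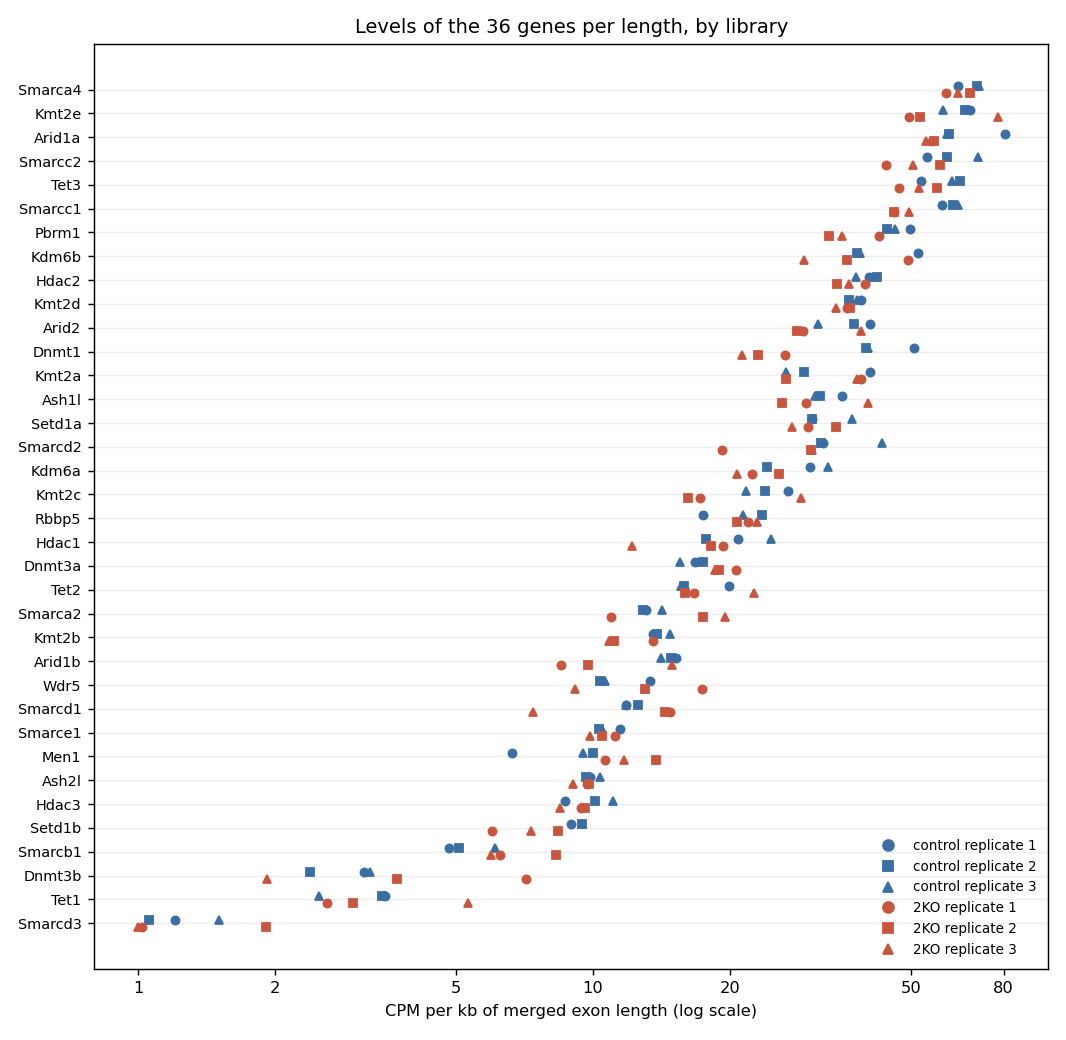
CPM per kb of merged exon length (log axis) of each of the 36 genes in the 6 libraries, ordered by the mean. Mean levels span from 1.28 for Smarcd3 to 65.9 for Smarca4, with Dnmt1 at 33.6.

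The balance between paralogues was compared as the log2 ratio of their counts within each library, which does not depend on scaling. None of 11 pairs was without overlap between the groups (exact permutation test, two-sided, smallest p = 0.2 and smallest Benjamini-Hochberg adjusted p = 0.733, where 3 against 3 libraries allow no p under 0.1). The log2 ratio of Smarca4 to Smarca2 was 1.21 ± 0.08 (SD, n = 3) under the control label and 0.90 ± 0.38 (SD, n = 3) under the 2KO label. The lowest count ratio of this pair, 1.48, was in 2KO replicate 3. Their merged exons are 6.48 and 14.27 kb long. Libraries differed by gene length, as described below, and a ratio of genes of unlike length can carry that difference. The count ratio of Setd1a to Setd1b was 1.91, 1.81 and 2.21 against 2.80, 2.30 and 2.11 (difference of log2 ratios 0.28). The count of pairs without overlap was 4 without 2KO replicate 3, 2 without control replicate 1 and 1 without control replicate 3 or 2KO replicate 1. With a library left out, groups are apart more often even without a difference, so these counts show no shift in balance.

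Long and short genes among the 36 differed between libraries of 1 group. Of the 14 with merged exons of 10 kb or longer, 8 had their highest value of the 2KO group in 2KO replicate 3, and of the 22 shorter ones 14 had their lowest there. Control replicate 3 showed the opposite, with 10 of the 14 long genes at their lowest in the control group and 13 of the 22 short genes at their highest. Across the 36 genes the log2 ratio of a library to the other 2 of its group correlated with log2 exon length at r = 0.586 in 2KO replicate 3 and r = -0.538 in control replicate 3. In the other 4 libraries r lay between -0.456 and 0.429. Across 8975 tested genes with a length and a mean over 10 CPM the values in these libraries were 0.294 and -0.283. Genes of 1 library share its depth and amplification, so these are descriptions. In 2KO replicate 3 the log2 ratio was highest for Tet1, Kmt2c and Arid1b and lowest for Dnmt3b and Smarcd1. Dnmt1, with 7.38 kb of exons, was at its lowest there.

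**Figure D5:**
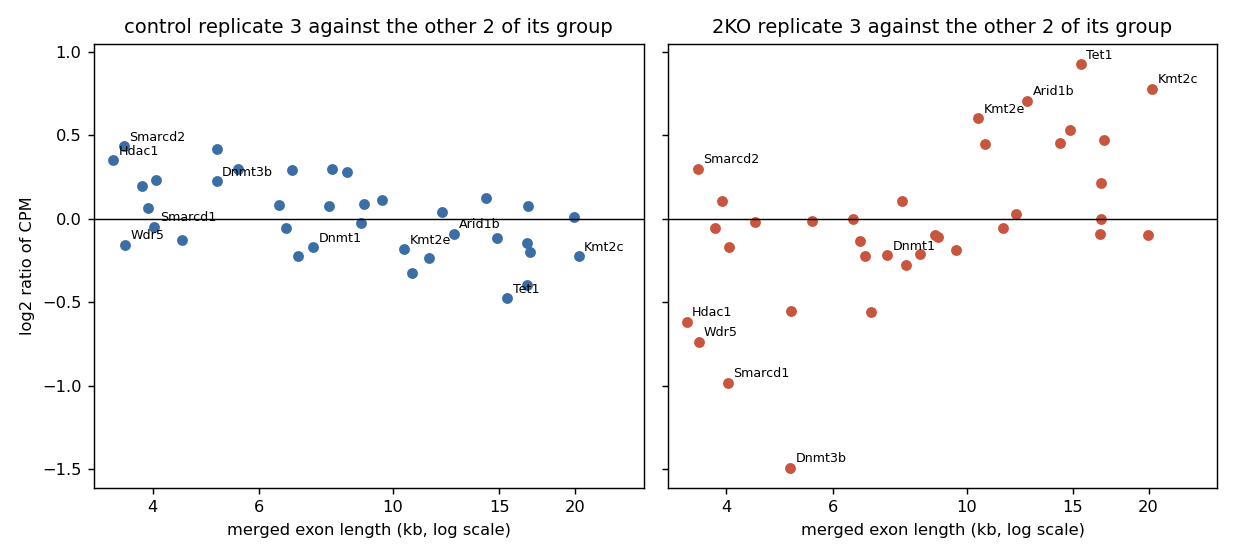
Log2 ratio of replicate 3 to the mean of the other 2 libraries of its group against merged exon length (kb, log axis) for the 36 genes; left control, right 2KO. The cloud falls with length in control replicate 3 (r = -0.538) and rises in 2KO replicate 3 (r = 0.586).

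Few other genes of the same pathways passed the test. Of 58 further subunits and partners in the files, 55 were tested, 1 rose and 1 fell (1.82% each, against 6.61% and 2.42% of all genes tested), with a median log2 fold change of -0.09. The fall was that of Uhrf1. The rise was that of Cxxc5, a CXXC zinc finger gene, at 23.7, 14.4 and 13.3 CPM under the control label and 29.3, 38.8 and 47.2 CPM under the 2KO label (log2 fold change 1.17, SE 0.29, edgeR adjusted p = 0.0383). Its call was lost on leaving out control replicate 2 (adjusted p = 0.123), control replicate 3 (0.135), 2KO replicate 2 (0.0968), 2KO replicate 3 (0.118) or replicate 3 of both groups (0.294, log2 fold change 0.84). Groups did not overlap for 17 of the 55 (30.9%, against 28.4% of all genes tested), 4 higher (7.27%, against 15.2%) and 13 lower (23.6%, against 13.1%). The latter include Rbbp4, a histone chaperone shared by NuRD, PRC2 and CAF-1 and chosen here after its values were seen, at 88.6, 80.8 and 83.9 against 62.2, 59.1 and 49.8 CPM (edgeR adjusted p = 0.0843). Zbtb38 (log2 fold change -1.36, edgeR adjusted p = 0.0558) and Bcl7a (-0.92, 0.0836), also among the 13, came closer to the threshold.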

How the data were processed

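Each library has 1 deposited file in which the authors give a raw count of reads for every gene symbol. The submitters' processing notes name the build mm10 and, with no roles, HTSeq 0.6.1, TopHat2 2.0.13, DESeq2 1.6.3 and Cufflinks 2.2.1. The annotation, the strand setting and the read filters were not stated there. The labels' protocols say that a small amount of total RNA was amplified before library making. They name no molecular identifiers, so reads need not be independent molecules.

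In edgeR 4.0.16 under R 4.3.3, low genes were removed with filterByExpr, libraries were scaled by TMM, and the groups were compared with glmQLFTest without covariates. Benjamini-Hochberg adjustment ran over 14972 genes. The SE is the absolute log2 fold change over the square root of F, and 95% intervals use the t distribution with the fit's degrees of freedom. On simulated counts for this comparison (14680 genes, with changes planted in 100 genes for each fold) 12% of 2-fold and 85% of 4-fold changes were called. Fewer genes were changed there than were called in the data, so these rates may understate those of the data. Lengths and coordinates are from GENCODE vM21 (GRCm38, as mm10), in which 97.1% of rows matched 1 gene; merged exons overstate the length of genes with many isoforms. Alternatives were DESeq2 1.42.0, limma-voom (limma 3.58.1), other scalings and filters, Xist as a covariate, a replicate block and libraries left out.

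The genes and lists were chosen with earlier results of these data known. Values per library are given for genes past the threshold, for the highest and lowest of each role per length, and for the 12 closest to the threshold.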

Additional observations from a re-analysis of the deposited data

How the results depend on the processing

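Over 18 other analyses no gene of the 36 was called higher. Dnmt1 was the 1 called lower in 16, and 0 were lower on dropping replicate 3 from both groups. Leaving out single libraries gave 0 to 1. For all genes the counts were 989 higher and 362 lower; 1486 and 753 with DESeq2, 309 and 72 on dropping replicate 3 from both groups, 237 lower with Xist as a covariate, and 615 to 854 higher and 184 to 347 lower without single libraries. Among the other pathway genes 1 rose and 1 fell. On dropping replicate 3 from both groups 0 and 0 did, and on dropping replicate 1 from both groups 0 fell. The number that fell was 2 with no low-count filter, 2 with limma-voom and 3 with DESeq2, and single libraries gave 0 to 1 in either direction. Pairs of paralogues without overlap numbered 0 to 4 without single libraries, where the smaller groups are apart more often even without a difference. The causes were not tested.

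Samples of the 2 groups share replicate numbers, but same-numbered libraries did not deviate together in all pairs (correlations 0.334, 0.0982 and -0.157). Pairs with different numbers gave correlations from -0.364 to 0.335. With the replicate block 1142 genes were higher and 540 lower, 4 other pathway genes fell, and the edgeR adjusted p of Dnmt1 was 0.00713.

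Of the 36 genes 21 kept their sign in all 18 analyses, and 15 that were not called changed it in at least 1. On dropping replicate 3 from both groups the log2 fold change was -0.09 for Kmt2a, 0.08 for Setd1a, 0.000495 for Ash2l, -0.32 for Tet1, -0.13 for Tet2, 0.02 for Hdac3 and -0.05 for Rnf2. On dropping replicate 1 from both groups it was 0.08 for Kmt2e, 0.10 for Ash1l, -0.03 for Rbbp5 and -0.14 for Smarcd1. With Xist as a covariate it was 0.03 for Kmt2e and Ring1, 0.08 for Ash1l, -0.22 for Smarcd1 and -0.13 for Smarcd3. That of Smarcd1 was also -0.01 with upper quartile or no scaling and -0.05 with limma-voom and the replicate block. Without single libraries the values that crossed 0 ran from -0.02 to 0.33 for Kmt2a, -0.18 to 0.01 for Setd1a, -0.31 to 0.03 for Kmt2e, -0.21 to 0.11 for Ash1l, -0.04 to 0.43 for Wdr5, -0.02 to 0.17 for Rbbp5, -0.38 to 0.02 for Kdm6b, -0.13 to 0.29 for Smarcd1, -0.31 to 0.25 for Smarcd3, -0.07 to 0.04 for Smarce1, -0.04 to 0.90 for Dnmt3b, -0.15 to 0.40 for Tet1 and -0.05 to 0.25 for Tet2.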
